A study of Mus musculus with 8 samples.

Results

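The genes described here carry a calcium signal from calmodulin to calcineurin and to the calcium/calmodulin-dependent kinases. They are 7 listed genes of the 19857 in the count table, found by symbol in GENCODE M21: Calm2, Calm3, Ppp3ca, Ppp3cb, Rcan1, Camk2a and Camk2b. RNA was measured with mcSCRB-seq, which tags each polyadenylated RNA at its 3' end and counts each molecule once by a unique molecular identifier. Tongues of 4 female A17/+ mice, aged 12 months and labelled PABPN1A17/+, were compared with tongues of 4 female WT mice of that age. The A17/+ genotype serves to model oculopharyngeal muscular dystrophy in mice. RNA was isolated from bulk sections of the median tongue, a tissue of muscle, epithelium, vessels, nerve and connective tissue.

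Calmodulin is a small calcium sensor. Loaded with calcium it switches on calcineurin, a phosphatase built of a catalytic A chain and a regulatory B chain, and the CaMKII kinases. In skeletal muscle, calcineurin dephosphorylates NFAT transcription factors and is known to promote slow fibre genes, and Rcan1, itself an NFAT target, encodes a protein that binds calcineurin and restrains it.

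Calm2 (ENSMUSG00000036438, mm10 chromosome 17, 87433412 to 87446935, minus strand) and Calm3 (ENSMUSG00000019370, chromosome 7, 16915379 to 16924114, minus strand) are separate genes for the same calmodulin protein. Ppp3ca (ENSMUSG00000028161, chromosome 3, 136670124 to 136937727, plus strand) and Ppp3cb (ENSMUSG00000021816, chromosome 14, 20499364 to 20546573, minus strand) encode the alpha and beta forms of the catalytic chain. Rcan1 is ENSMUSG00000022951 (chromosome 16, 92391953 to 92470867, minus strand). Camk2a and Camk2b (ENSMUSG00000057897, chromosome 11, 5969644 to 6066362, minus strand) encode the alpha and beta chains of CaMKII. The coding sequences of Calm2 and Calm3 are each 450 bases long and are identical at 82.7% of positions, with a longest identical run of 17 bases. Calm2 shares stretches of 50 bases or more with 3 annotated processed pseudogenes, of which Gm7308 and Gm15720 had 1 and 3 counts over all libraries, and Calm3 shares them with Gm5881. No exon of another annotated gene overlaps an exon of the 7 genes.

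Promoter sequence was at hand for 4 of the 7 genes, and the windows of 3 are shown because they differ in the letters GGAAA, the core that NFAT factors recognise. Rcan1 has a distal and an internal start, and its internal start is the one known to respond to calcineurin. The transcripts from both starts share their last exon, so these 3' counts cannot tell them apart. Each line gives the 250 bases before a start, 5′ to 3′ on the gene's strand, from RefSeq on GRCm38.p6, and capitals mark GGAAA or its reverse complement TTTCC.
Rcan1, internal start (chr16:92400079-92400328, minus strand): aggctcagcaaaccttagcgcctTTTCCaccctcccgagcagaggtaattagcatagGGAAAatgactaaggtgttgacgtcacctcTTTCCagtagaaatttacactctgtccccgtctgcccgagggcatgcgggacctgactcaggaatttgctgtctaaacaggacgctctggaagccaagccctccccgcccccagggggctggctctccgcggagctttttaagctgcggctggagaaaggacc
Rcan1, distal start (chr16:92466170-92466419, minus strand): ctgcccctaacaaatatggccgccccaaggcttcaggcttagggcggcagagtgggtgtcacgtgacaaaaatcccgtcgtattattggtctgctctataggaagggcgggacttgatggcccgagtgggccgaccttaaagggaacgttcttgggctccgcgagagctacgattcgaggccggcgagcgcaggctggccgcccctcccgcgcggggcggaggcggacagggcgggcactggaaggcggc
Ppp3cb (chr14:20546574-20546823, minus strand): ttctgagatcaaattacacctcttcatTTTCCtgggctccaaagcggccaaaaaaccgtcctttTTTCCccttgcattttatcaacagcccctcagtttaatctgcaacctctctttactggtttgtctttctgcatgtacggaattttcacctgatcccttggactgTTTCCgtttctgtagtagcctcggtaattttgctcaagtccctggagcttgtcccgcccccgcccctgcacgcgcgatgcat
Calm3 (chr7:16924033-16924282, minus strand): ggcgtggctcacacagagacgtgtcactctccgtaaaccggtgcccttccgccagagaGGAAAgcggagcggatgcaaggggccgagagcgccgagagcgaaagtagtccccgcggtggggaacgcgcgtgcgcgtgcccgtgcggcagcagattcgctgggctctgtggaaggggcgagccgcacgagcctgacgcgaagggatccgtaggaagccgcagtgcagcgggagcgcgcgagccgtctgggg
The motif stood 3 times before the internal start of Rcan1 and 0 times before its distal start. It stood 3 times before Ppp3cb and 1 time before Calm3. Of 32851 windows of this length in the table, 55.6% held it at least once and 6.39% at least 3 times. The window of Camk2b held 0. A match is a description of the letters and not a binding site.

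Library totals ran from 395061 to 485326 counts in A17/+ and from 205696 to 465014 in WT, so that 1 count was worth 2.23 to 5.42 CPM, the unit used below for counts scaled to library size with TMM factors. WT 1 and A17/+ 1 stood nearest to the other genotype on the first principal component, at −7.21 and 4.27, and results that change without both are given below. Transcripts shorter than 1000 nt took 6.26% to 8.97% of the counts in A17/+ and 4.34% to 6.46% in WT. The labels give 4 numbered samples for each genotype. The tissue carried its defining markers: the 6 skeletal muscle markers summed to between 95862 and 115054 CPM in A17/+ and 74977 and 102716 in WT, and the 8 tongue epithelium markers to between 9232 and 17861 and between 12460 and 13933. Of 7 tested epithelium markers 1 was lower, the desmosome gene Dsp, with 2751 ± 438 CPM in A17/+ and 4966 ± 587 CPM in WT (SD, n = 4 each; log2 fold change −0.85, edgeR adjusted p = 0.00553), and its groups did not overlap. The other tested epithelium markers did not pass and went both ways. Krt5, Krt13, Krt4 and Krt6a had log2 fold changes of 0.81, 0.68, 0.38 and 0.34, and Krt14 and Sfn had −0.43 and −0.24. Krt13 lay nearest to the threshold (edgeR adjusted p = 0.0501). Of the muscle markers, Acta1, Ckm and Tnnt3 were higher in A17/+, whereas Ttn, Myh4 and Myh1 did not pass the test. Over all genes tested, 6.34% were higher, 2.61% were lower and 14.6% had groups that did not overlap. The longest transcripts of Acta1, Ckm and Tnnt3 are 1446, 2742 and 1079 nt. Those of Ttn, Myh4, Myh1 and Dsp are 106824, 6016, 6081 and 9592 nt. The part of transcript length in these marker differences was not tested. In bulk tissue, fewer cells of a type and less RNA per cell cannot be told apart.

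Calm2 was higher in A17/+ tongue, by about 2-fold, with an adjusted p below 0.05 in edgeR's quasi-likelihood test over 5066 tested genes. Calm3 also passed, but it entered the test only through its level in A17/+, and its call was lost under several alternatives. Ppp3cb had a rise of similar size that missed the threshold, and Ppp3ca and Rcan1 had smaller differences that did not pass. Camk2a and Camk2b, known best as the CaMKII chains of brain, lay below the count filter and were compared by permutation. Of the 5 listed genes tested, Calm2 and Calm3 were called higher and 0 lower, and the count is a description, since Calm3 reached the filter in 4 A17/+ libraries and 1 WT library. In all, 8.94% of all genes tested passed in either direction, 6.34% higher and 2.61% lower. The median log2 fold change of all genes tested was 0.01.

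**Figure D1:**
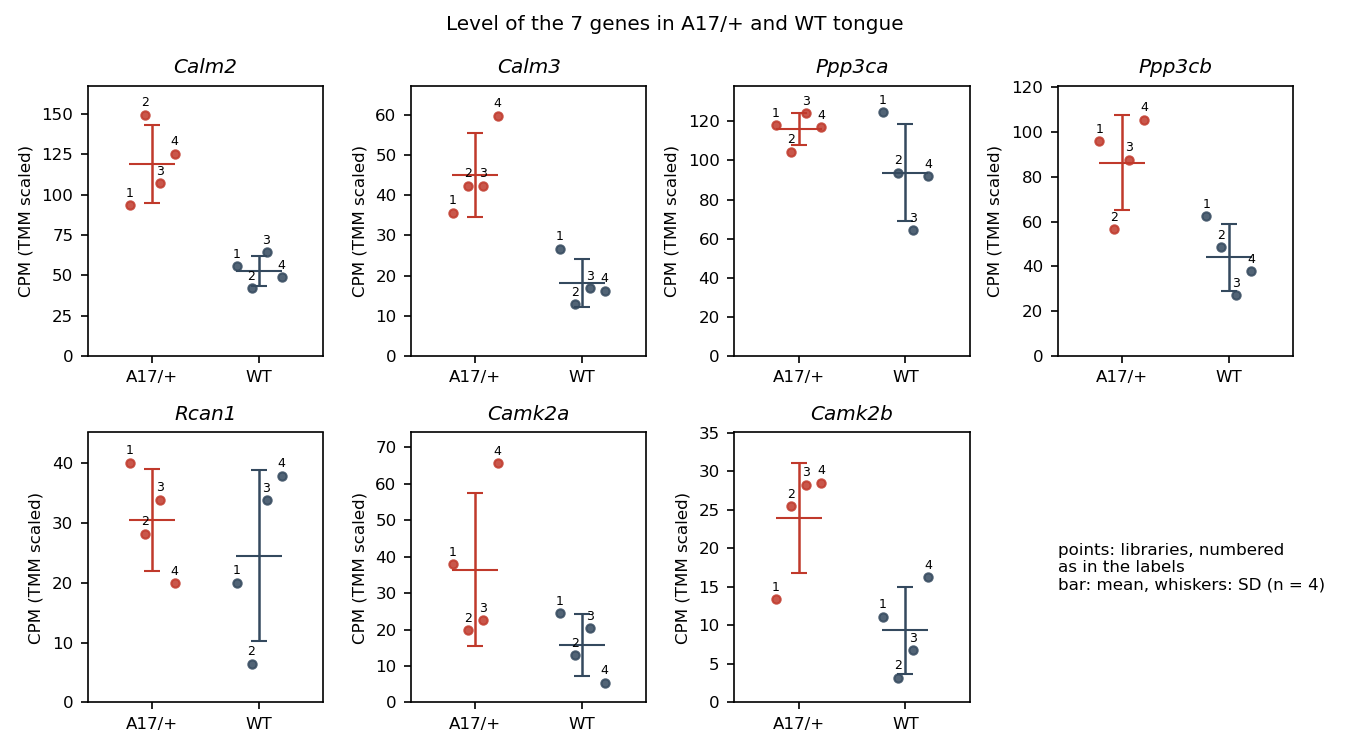
Level of Calm2, Calm3, Ppp3ca, Ppp3cb, Rcan1, Camk2a and Camk2b in CPM with TMM scaling (y axis, from 0), with 1 point per library numbered as in the labels, the mean and the SD (n = 4 A17/+ and 4 WT). The A17/+ points lie above all WT points for Calm2 (93.6 CPM or more against 64.3 or less) and Calm3 (35.7 or more against 26.7 or less), and the groups overlap for the other 5 genes.

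Calm2 had 42, 53, 38 and 44 counts in A17/+ 1 to 4 and 25, 13, 19 and 9 counts in WT 1 to 4. Scaled, these were 93.6, 150, 107 and 125 CPM in A17/+ and 55.7, 42.0, 64.3 and 48.8 CPM in WT. All A17/+ libraries lay above all WT libraries, which held for 8.57% of the genes tested. The means were 119 ± 24.2 CPM in A17/+ and 52.7 ± 9.54 CPM in WT (SD, n = 4 each). The log2 fold change was 1.16 (SE 0.25, 95% interval 0.63 to 1.68), a 2.23-fold rise, with an adjusted p of 0.00884 in edgeR. Calm2 stayed past the threshold when any single library was left out, with log2 fold changes from 1.01 to 1.24. Its longest basic transcript is 1205 nt, the shortest of the 7, and after correction for a length trend in each library the log2 fold change was 0.66 (edgeR adjusted p = 0.0851). With all libraries thinned to 205696 counts, Calm2 passed in 18 of 20 draws without replacement and in 11 of 20 draws of the noisier thinCounts procedure, and all 40 draws had a positive fold change.

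Calm3 was a gene of few counts: 16, 15, 15 and 21 in A17/+ 1 to 4 and 12, 4, 5 and 3 in WT 1 to 4. These came to 35.7, 42.4, 42.4 and 59.9 CPM in A17/+ and 26.7, 12.9, 16.9 and 16.3 CPM in WT. The groups did not overlap, and WT 1 was the WT library nearest to A17/+. Calm3 reached the level of the filter, 24.6 CPM before TMM scaling, in all 4 A17/+ libraries and in 1 WT library, with 4 libraries needed. The means were 45.1 ± 10.4 CPM in A17/+ and 18.2 ± 5.95 CPM in WT (SD, n = 4 each), with a log2 fold change of 1.21 (SE 0.34, 95% interval 0.48 to 1.94) and an adjusted p of 0.0367. Leaving out A17/+ 3 gave an adjusted p of 0.0794, A17/+ 4 gave 0.145, WT 2 gave 0.118, WT 3 gave 0.106 and WT 4 gave 0.0881. The adjusted p was 0.0848 in DESeq2, 0.0907 in limma-voom and 0.0743 with replicate number as a block, at log2 fold changes of 1.13 to 1.23.

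Calm4 and Calml3, calmodulin-like genes known from epithelium, did not pass. Calml3 had 198 ± 132 CPM in A17/+ and 86.4 ± 33.9 CPM in WT (SD, n = 4 each; log2 fold change 1.14, edgeR adjusted p = 0.109), and A17/+ 2 was its highest library. Its log2 fold change was 0.55 without A17/+ 2 (adjusted p = 0.202), but the test was passed without A17/+ 1 (1.22, adjusted p = 0.0289), without both libraries numbered 1 (1.59, adjusted p = 0.00928), with no count filter (1.05, adjusted p = 0.00133) and in the first thinning (1.51, adjusted p = 0.0304). Calm4 had 359 ± 149 CPM in A17/+ and 294 ± 57.9 CPM in WT (log2 fold change 0.27, adjusted p = 0.526), and without A17/+ 2 it had −0.06.

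Neither catalytic chain of calcineurin passed the test. Ppp3ca had 53, 37, 44 and 41 counts in A17/+ 1 to 4 and 56, 29, 19 and 17 in WT 1 to 4, or 118, 104, 124 and 117 CPM in A17/+ and 125, 93.7, 64.3 and 92.1 CPM in WT. WT 1 was the highest library of all, and the groups overlapped. The means were 116 ± 8.30 CPM in A17/+ and 93.7 ± 24.7 CPM in WT (SD, n = 4 each). The log2 fold change was 0.29, and its 95% interval (−0.20 to 0.78) spans folds between 0.870 and 1.71 (edgeR adjusted p = 0.475).

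Ppp3cb had 43, 20, 31 and 37 counts in A17/+ 1 to 4 and 28, 15, 8 and 7 in WT 1 to 4, or 95.9, 56.5, 87.6 and 105 CPM in A17/+ and 62.4, 48.5, 27.1 and 37.9 CPM in WT. A17/+ 2 lay inside the WT range, below WT 1. The means were 86.3 ± 21.2 CPM in A17/+ and 44.0 ± 15.1 CPM in WT (SD, n = 4 each), with a log2 fold change of 0.92 (SE 0.29, 95% interval 0.30 to 1.54) and an edgeR adjusted p of 0.0586. The test was passed without A17/+ 2 (1.07, adjusted p = 0.0240), without WT 1 (1.15, adjusted p = 0.0273) and without both libraries numbered 1 (1.12, adjusted p = 0.0264). Leaving out any other single library gave an adjusted p of 0.101 to 0.185. The adjusted p was 0.102 in DESeq2 and 0.104 in limma-voom.

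Within the pair, Ppp3cb gave a larger part of the counts in A17/+. Its share of Ppp3ca and Ppp3cb counts was 44.8%, 35.1%, 41.3% and 47.4% in A17/+ 1 to 4 and 33.3%, 34.1%, 29.6% and 29.2% in WT 1 to 4. The groups did not overlap, but A17/+ 2 and WT 2, the nearest pair, had exact 95% intervals of 22.9% to 48.9% and 20.5% to 49.9%, which cover counting error only. The share was chosen after the values were seen, and its difference between the groups was not tested.

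**Figure D2:**
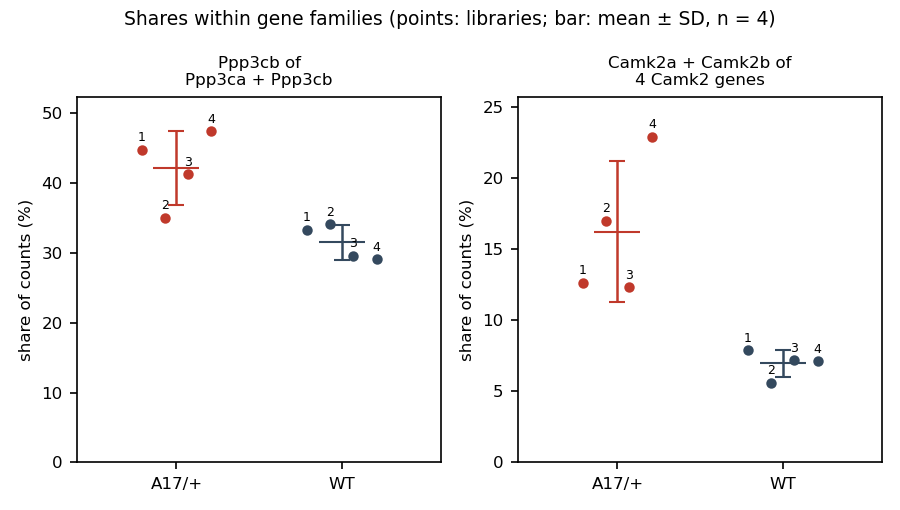
Shares of raw counts within gene families in percent (y axis, from 0), with 1 point per library, the mean and the SD (n = 4 A17/+ and 4 WT). The share of Ppp3cb among Ppp3ca and Ppp3cb and the share of Camk2a and Camk2b among 4 Camk2 genes lie higher in A17/+ (35.1% or more against 34.1% or less, and 12.3% or more against 7.88% or less), with no overlap.

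Ppp3r1, the regulatory B chain of calcineurin, had 126 ± 14.0 CPM in A17/+ and 76.3 ± 27.6 CPM in WT (SD, n = 4 each; log2 fold change 0.67, adjusted p = 0.104 in edgeR). It passed in 3 of 24 alternatives: without WT 1 (0.90, adjusted p = 0.0291), without both libraries numbered 1 (0.88, adjusted p = 0.0297) and in the first draw without replacement (1.00, adjusted p = 0.0209). Its adjusted p otherwise reached 0.272. Ppp3cc, the third catalytic form, lay below the filter, with 2.85 to 16.9 CPM in A17/+ and 3.38 to 16.3 CPM in WT.

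Rcan1 showed no difference that the test could detect at this depth. It had 18, 10, 12 and 7 counts in A17/+ 1 to 4 and 9, 2, 10 and 7 in WT 1 to 4, or 40.1, 28.2, 33.9 and 20.0 CPM in A17/+ and 20.1, 6.46, 33.8 and 37.9 CPM in WT. WT 1, WT 3 and WT 4 lay within the A17/+ range and WT 2 was the lowest library. The means were 30.6 ± 8.58 CPM in A17/+ and 24.6 ± 14.3 CPM in WT (SD, n = 4 each). The log2 fold change was 0.42, and its 95% interval (−0.48 to 1.33) spans folds between 0.715 and 2.51 (edgeR adjusted p = 0.584). Without WT 2 it was 0.06.

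Camk2a (ENSMUSG00000024617, mm10 chromosome 18, 60925618 to 60988152, plus strand) was sparse. It had 17, 7, 8 and 23 counts in A17/+ 1 to 4 and 11, 4, 6 and 1 in WT 1 to 4, or 37.9, 19.8, 22.6 and 65.6 CPM in A17/+ and 24.5, 12.9, 20.3 and 5.42 CPM in WT. A17/+ 4 and A17/+ 1 were the highest, and the other A17/+ libraries lay among the WT values. The mean of log2(CPM + 1) was 5.07 in A17/+ and 3.89 in WT, a difference of 1.18 with a two-sided exact permutation p of 0.143 over 70 assignments, where the smallest possible p is 0.0286. The first thinning of the counts turned the sign of this difference (−0.19), and 1 of 40 thinned draws in all was below 0. With no count filter the edgeR log2 fold change was 1.00 (95% interval 0.15 to 1.85, unadjusted p = 0.0205, adjusted p = 0.232).

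Camk2b had 6, 9, 10 and 10 counts in A17/+ 1 to 4 and 5, 1, 2 and 3 in WT 1 to 4, or 13.4, 25.4, 28.3 and 28.5 CPM in A17/+ and 11.1, 3.23, 6.77 and 16.3 CPM in WT. A17/+ 1 lay below WT 4, and the other A17/+ libraries were above all of WT. The difference in mean log2(CPM + 1) was 1.39, with an exact permutation p of 0.0571. The unfiltered edgeR log2 fold change was 1.30 (95% interval 0.21 to 2.39, unadjusted p = 0.0196, adjusted p = 0.226).

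The more widely expressed CaMKII chains, Camk2d and Camk2g, did not pass the test. Camk2d had 158 ± 38.8 CPM in A17/+ and 150 ± 44.0 CPM in WT (SD, n = 4 each; log2 fold change 0.04, 95% interval −0.49 to 0.57, adjusted p = 0.939 in edgeR). Camk2g had 156 ± 32.7 CPM in A17/+ and 180 ± 37.4 CPM in WT (log2 fold change −0.21, 95% interval −0.68 to 0.27, adjusted p = 0.615). Camk2a and Camk2b together gave 12.6%, 17.02%, 12.3% and 22.9% of the counts of the 4 genes in A17/+ 1 to 4 and 7.88%, 5.62%, 7.21% and 7.14% in WT 1 to 4. All A17/+ shares were above all WT shares, and the exact 95% intervals of A17/+ 3 (7.47% to 18.8%) and WT 1 (4.57% to 12.5%) overlapped. This share, too, was chosen after the values were seen and was not tested.

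Neuron and axon markers were near 0: the 5 analysed, Nefm, Snap25, Tubb3, Syt1 and Stmn2, summed to 14 counts over the A17/+ libraries and 13 over the WT libraries. Of the Schwann cell markers 1 of 2 tested, Pmp22, was higher in A17/+, with all 6 summing to between 174 and 220 CPM in A17/+ and 47.4 and 92.1 in WT. Also higher were 2 of 5 tested markers of fibroblasts, 1 of 1 of adipocytes, 1 of 1 of red blood cells and 1 of 3 of smooth muscle and pericytes, and 0 of these were lower, where 6.34% of all genes tested were higher and 2.61% lower. The adipocyte marker Fabp4 and the red blood cell marker Hbb-bs had at most 21.7 and 10.8 CPM in WT. Like Calm3, they entered the test only through their level in A17/+, so these counts are a description. Pmp22 had 46.8 to 79.8 CPM in A17/+ and 12.9 to 32.5 in WT, where the filter stood at 24.6 CPM before TMM scaling. Fibroblast markers summed to between 524 and 1073 CPM in A17/+ and 345 and 504 in WT, adipocyte markers to between 69.1 and 119 and between 9.70 and 21.7, and red blood cell markers to between 100 and 1333 and between 20.1 and 32.3. The adipocyte sum was mostly Fabp4, the tested marker, with 134 of 150 counts in A17/+ and 17 of 19 in WT. Adipoq, Plin1 and Cfd had 4, 3 and 9 counts in A17/+ and 1, 1 and 0 in WT. The 5 smooth muscle and pericyte markers summed to between 822 and 1231 CPM in A17/+ and 772 and 947 in WT. Of endothelium and macrophage markers 0 of 4 and 0 of 2 tested passed. Salivary gland genes summed to between 14.1 and 57.0 CPM in A17/+, to 2055 in WT 1 and to at most 10.2 in the other WT libraries. The part of these cell types in the values of the 7 genes was not tested.

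Related genes were taken from 8 lists chosen with earlier results of these data known, 63 genes in all, of which 37 were tested. Of these, 4 were higher and 1 was lower, where 6.34% of all genes tested were higher and 2.61% lower, and the median log2 fold change was 0.27, against 0.01 over all genes tested. Myoz1 and Myoz3, which encode Z-disc proteins that bind calcineurin, were the 2 of 7 tested calcineurin regulators that rose. Myoz1 had 80.3, 209, 212 and 237 CPM in A17/+ 1 to 4 and 60.2, 38.8, 33.8 and 48.8 CPM in WT 1 to 4 (log2 fold change 1.99, adjusted p = 0.00298 in edgeR). The groups did not overlap, and A17/+ 1 was nearest to WT. Myoz3 had 111 ± 19.4 CPM in A17/+ and 59.5 ± 12.4 CPM in WT (log2 fold change 0.89, adjusted p = 0.0310), and its adjusted p was above 0.05 in DESeq2 (0.0572), limma-voom (0.0558), without TMM factors (0.0643), with the replicate block (0.0572), with no filter (0.0751), in limma-trend on the deposited log2 values (0.0521), in the first thinning (0.398) and without A17/+ 2, A17/+ 3, A17/+ 4, WT 3 or WT 4 (0.0538 to 0.120). The related Myoz2, of slow fibres, had 0.79 and did not pass (adjusted p = 0.0763), and the calcineurin inhibitor Cabin1 and the anchor Akap6 had −0.11 and 0.05.

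**Figure D3:**
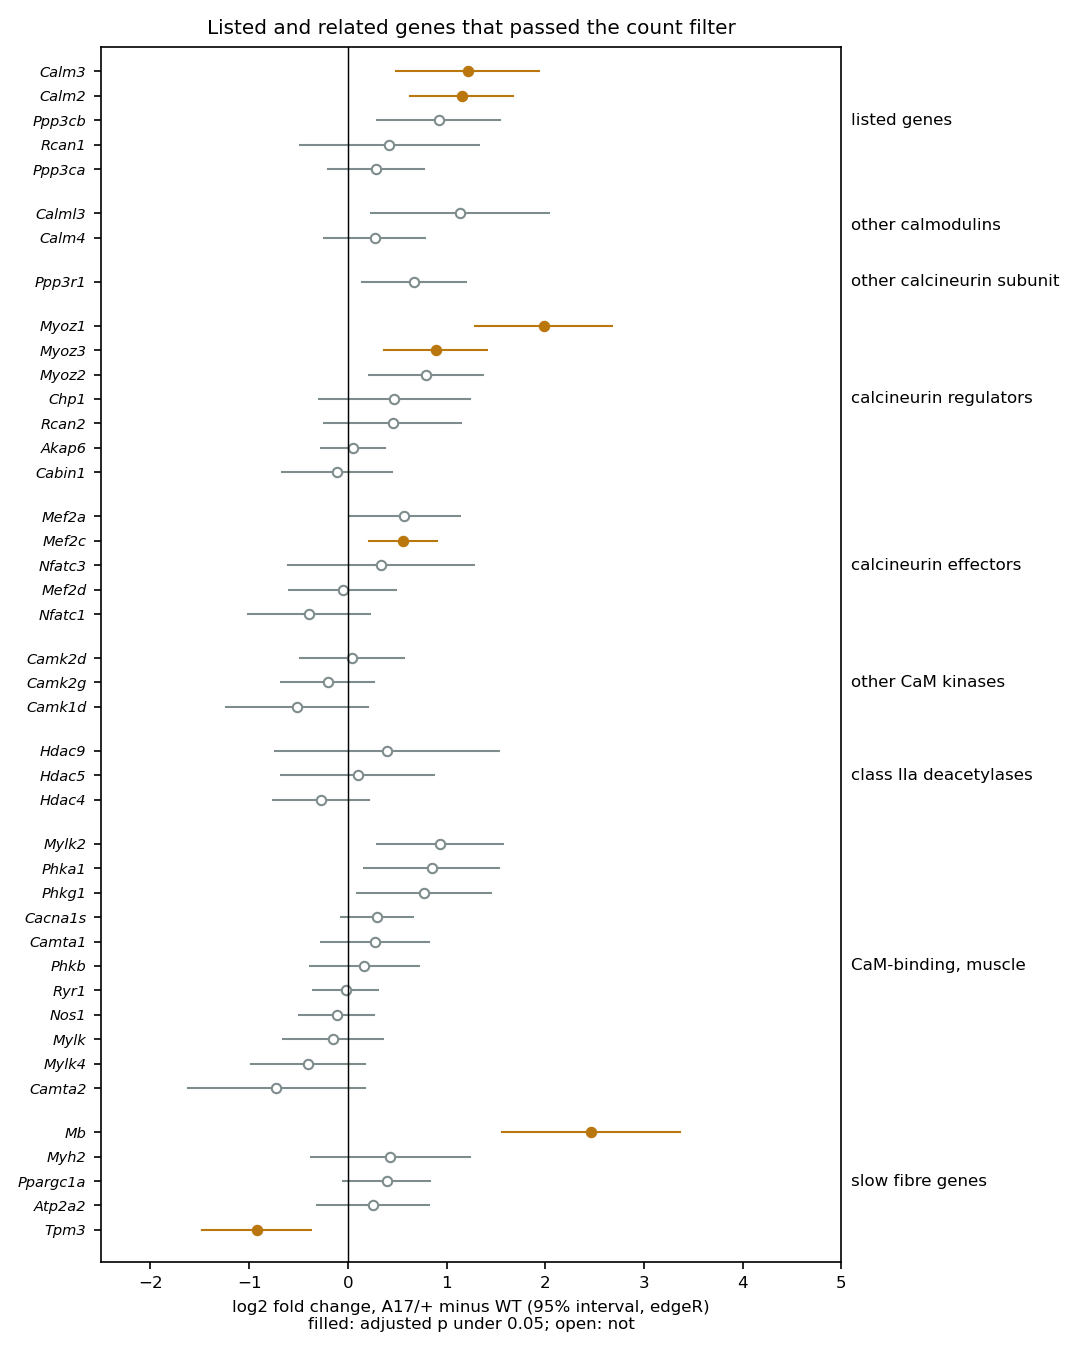
Log2 fold change of A17/+ minus WT with its 95% interval from edgeR (x axis) for 5 of the 7 listed genes and 37 related genes that passed the count filter, grouped by role. Filled points have an adjusted p under 0.05: Calm3, Calm2, Myoz1, Myoz3, Mef2c and Mb lie to the right of 0 and Tpm3 to the left.

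Of the transcription factors that calcineurin acts on or with, 1 of 5 tested rose, where 6.34% of all genes tested were higher. The list held 11 genes, and the others lay below the filter. Mef2c, a factor of muscle gene expression, had 638 ± 94.5 CPM in A17/+ and 432 ± 58.1 CPM in WT (SD, n = 4 each; log2 fold change 0.56, adjusted p = 0.0416 in edgeR). Its adjusted p was 0.0508 with upper quartile scaling, 0.0860 without TMM factors, 0.0811 in DESeq2, 0.0652 in limma-voom, 0.0910 with no count filter, 0.103 in the first thinning, 0.119 in limma-trend on the deposited log2 values and 0.0568 with the replicate block. It missed the threshold whenever A17/+ 1, A17/+ 3, A17/+ 4, WT 2, WT 3 or WT 4 was left out (0.0730 to 0.171). Nfatc1 and Nfatc3, the NFAT factors that were tested, had log2 fold changes of −0.40 (adjusted p = 0.430) and 0.34 (adjusted p = 0.695).

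Of the other CaM kinases 0 of 3 and of the class IIa deacetylases that these kinases phosphorylate 0 of 3 passed. The values with the smallest p were −0.52 for Camk1d (adjusted p = 0.367), −0.21 for Camk2g, −0.27 for Hdac4 (adjusted p = 0.508) and 0.40 for Hdac9 (adjusted p = 0.703). Of 11 muscle proteins that bind calmodulin 0 passed in edgeR. With 8.94% of all genes tested passing in either direction, counts of 0 in lists this short are a description only. Mylk2, the skeletal myosin light chain kinase, had 75.3 ± 20.0 CPM in A17/+ and 39.2 ± 11.9 CPM in WT (log2 fold change 0.94, adjusted p = 0.0630), and Phka1, a subunit of phosphorylase kinase, had 0.85 (adjusted p = 0.110). Without both libraries numbered 1, Mylk2 (1.13, adjusted p = 0.0218) and Phka1 (1.09, adjusted p = 0.0484) passed. Mylk2 also passed without A17/+ 1 (adjusted p = 0.0213), and Phka1 without A17/+ 2 (adjusted p = 0.0198). Of 24 alternatives for each gene, Mylk2 passed in 3, counting the threshold of 0.1, and Phka1 in 2. Their adjusted p otherwise reached 0.207 and 0.360. Ryr1, the calcium release channel, had −0.02 (95% interval −0.35 to 0.31), and Nos1 had −0.11.

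Genes of slow and oxidative fibres, the program that calcineurin is known to promote, were measured only in part. Of 11 listed, Myh7, Tnnc1 and Myl3 were absent from the count table, and Tnnt1, Myl2 and Tnni1 lay below the filter. The 5 tested did not all move in the same direction, and they do not stand for the whole program. Of 5 tested, myoglobin (Mb) rose, with 2105 ± 872 CPM in A17/+ and 377 ± 156 CPM in WT (log2 fold change 2.46, adjusted p = 0.00796 in edgeR). Tpm3, listed for the slow tropomyosin it encodes, fell, with 68.0 ± 16.98 CPM in A17/+ and 130 ± 34.7 CPM in WT (log2 fold change −0.92, adjusted p = 0.0359). Its adjusted p was 0.0675 in limma-voom and between 0.0532 and 0.121 when A17/+ 3, A17/+ 4, WT 2, WT 3 or WT 4 was left out. It was 0.266 in the first thinning (−0.66) and 0.0882 in the first draw without replacement (−0.89). Counts per gene in bulk tongue do not tell apart the transcripts of Tpm3 or the cells they came from. Its fall is therefore not assigned to slow fibres. Myh2, Ppargc1a and Atp2a2 had 0.43, 0.40 and 0.26 and did not pass. The slow troponin gene Tnni1 had at most 3 counts in any library.

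The genes whose log2 CPM over the 8 libraries was most like that of Calm2 were Pea15a (Pearson r = 0.98), Bin1 (0.98) and Ak1 (0.97). For Calm3 they were Tcf4 (0.98), Atp1b1 (0.98) and Pygm (0.97), and for Ppp3cb Ugp2 (0.98), Gpcpd1 (0.97) and Nampt (0.96). For Ppp3ca they were Atp5l, Stxbp5 and Gabpb2 (0.95 to 0.97), and for Rcan1 Kansl3, Scara5 and Sik3 (0.93 to 0.94). Each is the highest of 5066 genes over the same 8 libraries, which share their depth, scaling and genotype, and is a description only. With the group means taken out, r of these 15 genes ran from 0.83 to 0.97. Of the 15 genes, Bin1 and Ak1 (both adjusted p = 0.00486), Atp1b1 (adjusted p = 0.00343), Pygm (adjusted p = 0.00325) and Ugp2 (adjusted p = 0.0304) were themselves higher in A17/+ in edgeR, where 6.34% of all genes tested were higher. They were picked by r over both genotypes, so these calls are not independent of the differences in Calm2, Calm3 and Ppp3cb.

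**Figure D4:**
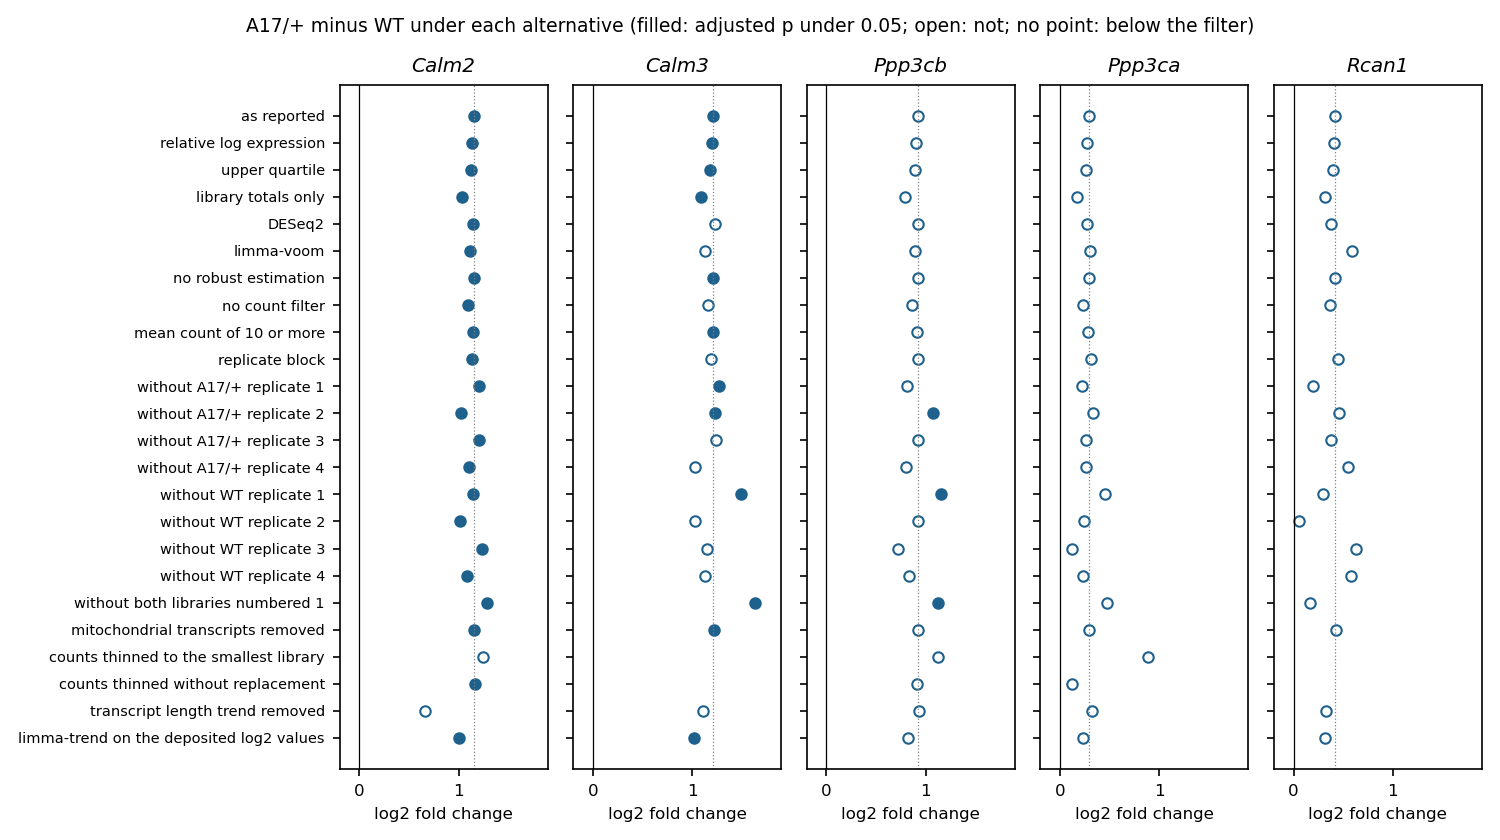
Log2 fold change of A17/+ minus WT (x axis) for Calm2, Calm3, Ppp3cb, Ppp3ca and Rcan1 under each alternative (rows), filled where the adjusted p was under 0.05. All points lie to the right of 0; Calm2 is open with the length trend removed (0.66) and in the first thinning (1.25) and filled elsewhere, and Ppp3ca and Rcan1 are filled nowhere.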

How the data were processed

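The authors deposited a table of raw counts per Ensembl gene for 8 libraries, and a file of log2 values per library, which was used in 1 alternative only. Per the submitters' processing notes, the tools were HTSeq, UMI-tools 1.1.1, STAR 2.7.5a and cutadapt 2.10, and the build mm10. Their roles, settings, strand and annotation release are not given in the sources used here. Symbols and positions came from GENCODE M21 (GRCm38, the assembly of mm10) for 19677 of 19857 identifiers.

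A filter (filterByExpr, at least 10 counts at the median depth and 15 in total) left 5066 genes. TMM factors and edgeR 4.0.16 (R 4.3.3) gave quasi-likelihood tests with robust dispersion and a single genotype term. Adjustment followed Benjamini and Hochberg across every tested gene, with a threshold of 0.05. Levels are CPM with TMM scaling. Genes below the filter were compared by exact permutation of log2(CPM + 1). The script was tested on simulated counts, where 32% of 2-fold and 97% of 4-fold changes were recovered, 100 genes each. Counts were thinned to the smallest library first with edgeR's thinCounts and then, added after those values were seen, without replacement, with 20 draws of each.

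The 7 genes and the lists were chosen with earlier results of these data known. Related genes were named by rule: per list up to 4 past the threshold with the smallest p, or 2 as values where none passed, and the 3 genes with the highest r for each tested gene. Others (Ppp3cc, Camk2d, Myoz2, Cabin1, Akap6, Nfatc1, Nfatc3, Ryr1, Nos1, Myh2, Ppargc1a, Atp2a2, Tnni1, Tnnt1, Myl2, Myh7, Tnnc1 and Myl3) were added from the lists after their values were seen. Alternatives used limma 3.58.1 and DESeq2 1.42.0. Intervals of shares cover counting error only. Depth per library is given with the results. A further gene of the pathway is not reported here.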

Additional observations from a re-analysis of the deposited data

Results flagged for a closer look

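Of 42 groups of 4 libraries examined for the 7 genes and the related genes named by rule, 3 had a library far from the other 3, where chance gives about 1 in 20. In each it was A17/+ 2 that lay highest. Tpm3, the tropomyosin gene that fell, had 93.2 CPM in A17/+ 2 and 56.5 to 62.4 CPM in the other A17/+ libraries, and without A17/+ 2 its log2 fold change was −1.11. Calml3 had 395 CPM in A17/+ 2 and 116 to 145 CPM in the other A17/+ libraries. Calm4 had 579 CPM in A17/+ 2 and 256 to 308 CPM in the others. The 8 tongue epithelium markers also summed highest in A17/+ 2, to 17861 CPM, against 9232 to 13417 CPM in the other A17/+ libraries. A link between that sum and these genes was not tested.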

How the results depend on the processing

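Log2 fold changes of Calm2, Calm3, Ppp3ca, Ppp3cb and Rcan1 were positive under every alternative in which they were tested, apart from repeated thinned draws of Ppp3ca given below. Camk2a reversed in 1 alternative, and Camk2b was below 0 in 1 of its thinned draws. Thinning was done in 2 ways. The planned one, run first with edgeR's thinCounts, lost the call of Calm2 (1.25, adjusted p = 0.0591), reversed the difference of Camk2a (−0.19) and left 211 genes higher and 54 lower and 0 of the 7 genes higher. After these values were seen sampling without replacement was added beside it, where Calm2 passed (1.16, adjusted p = 0.00881) and 1 of the 7 genes was higher. Over 20 draws, thinCounts had 1.55 to 2.09 times the variance that exact sampling gives in 4 classes of count, and sampling without replacement had 0.924 to 1.00 times. Calm2 passed in 11 of 20 draws with thinCounts (0.67 to 1.70) and in 18 of 20 without replacement (0.85 to 1.45), Ppp3cb in 3 and in 10, and Ppp3ca in 0 and in 0, with 2 thinCounts draws of Ppp3ca below 0. Calm4 reversed without A17/+ 2, with log2 fold changes from −0.0583 to 0.366 when 1 library was left out, and with the length trend removed (−0.51). Calm2 otherwise missed the threshold with the length trend removed (0.66). Calm3 missed the threshold in DESeq2 (1.23), limma-voom (1.13), with no count filter (1.16, adjusted p = 0.0842), with the replicate block (1.19) and with the length trend removed (1.11, adjusted p = 0.0519), and lay below the filter in the first draw of both thinnings. Ppp3cb passed in 4 of 24 alternatives: without A17/+ 2, without WT 1, without both libraries numbered 1 (1.12) and at an adjusted p under 0.1 (0.92). With 1 library left out, log2 fold changes ran from 1.01 to 1.24 for Calm2, from 1.03 to 1.50 for Calm3 and from 0.72 to 1.15 for Ppp3cb. Of the 7 genes, 1 was higher in DESeq2, limma-voom, with no filter, with the replicate block and in counts thinned without replacement, 0 with the length trend removed, and 1 to 3 with 1 library left out. Equal replicate numbers are not said to pair mice. Deviations from the group means correlated at −0.16 to 0.07 between equal-numbered libraries, too few pairs to settle whether mice or batches were shared. Before the group means were taken out, WT 1 and A17/+ 1 had r = 0.927 in log2 CPM, the highest between the genotypes. Under the replicate block 1 of the 7 genes passed instead of 2.

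Over all genes, 321 were higher and 132 lower. The counts were 152 and 81 in limma-voom, 615 and 238 with no filter, 695 and 330 without both libraries numbered 1, 569 and 239 with limma-trend on the deposited log2 values, and 487 and 288 at an adjusted p under 0.1. With library totals only, 289 were lower and the median of all genes moved to −0.11, and the log2 fold changes of Calm2 and Calm3 were 1.03 and 1.09. With 1 library left out, 172 to 586 were higher and 38 to 383 lower. The cause of these changes was not tested. At these depths a gene near 20 CPM is a few molecules per library, which limits Calm3, Camk2a, Camk2b and Rcan1.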
